A study of Homo sapiens with 6 samples.

Results

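The glycolysis enzymes were followed as a set of 10 genes, GAPDH, ENO1, PKM, LDHA, LDHB, PGK1, ALDOA, TPI1, PGAM1 and GPI. They were picked from the table by gene symbol, and all 10 were found among the 27420 listed genes. The values come from A673 and SKNMC, established cell lines derived from Ewing sarcoma, a tumor of bone and soft tissue driven by a fusion of EWSR1 with an ETS gene. The cells had been kept for 6 h in THZ1 at 50 nM (low dose) or 200 nM (high dose), or in DMSO, its solvent. THZ1 is a covalent inhibitor of CDK7, a kinase of the general transcription machinery. The study asked how blocking CDK7 alters transcription in these cells. There was 1 library per condition, 6 in all, so differences within a line have no replicate error beside them, and no test was run. Each line is a single cell line, and the lines were described side by side rather than as replicates of each other.

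Glycolysis splits glucose into pyruvate in the cytosol and yields ATP and NADH on the way. Lactate dehydrogenase then turns pyruvate into lactate, which restores the NAD+ that the GAPDH step uses up. Tumor cells are known for running this pathway at a high rate even with oxygen present, and several of its genes are classic targets of the factors HIF1 and MYC.

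Values are FPKM, fragment counts corrected for transcript length and for the size of the library, so they are shares of a library and not amounts per cell. In a bulk library, fewer cells and less RNA per cell cannot be told apart. A log2 fold change is the log2 ratio of FPKM + 1 to that of the DMSO library of the same line. Genes above 1 FPKM in that DMSO library, 11077 in A673 and 11896 in SKNMC, served as the background and are called active. The median of their log2 fold changes in A673 was -0.27 for the low dose and -0.40 for the high dose. In SKNMC the medians were -0.32 and -0.55. All 8 Ewing sarcoma marker genes examined, CD99 and FLI1 among them, were active in both lines. Their median log2 fold changes at 200 nM were -0.49 in A673 and -1.41 in SKNMC, or 0.28 and -0.62 when each library was divided by the median of its active genes. Of 7 markers of other cell types that are listed, COL1A2 lay between 62.6 and 99.4 FPKM in all 6 libraries, and the leukocyte marker PTPRC lay between 7.90 and 13.1 FPKM in SKNMC but at most at 0.029 FPKM in A673; the other 5, CD3E and MYOG among them, were below 1 FPKM in every library. Their part in the results was not tested. EEF1A1, a translation factor, was listed at 0 in both THZ1 libraries of SKNMC against 4400 FPKM with DMSO, so an exact 0 in this table can be a failed estimate; none of the 10 enzymes was listed at 0 in any library.

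With DMSO the 10 enzymes spanned a wide range of levels, and their order was similar in both lines at the top. GAPDH, which oxidises glyceraldehyde 3-phosphate, was the highest of the 10 in both lines, at 3256 FPKM in A673 and 1879 FPKM in SKNMC. It stood at rank 2 of all listed genes in A673 and at rank 13 in SKNMC. ENO1, the main enolase, came next at 1532 and 1221 FPKM. PGAM1, a phosphoglycerate mutase, and GPI, the isomerase of glucose 6-phosphate, were the lowest, at 176 and 163 FPKM in A673 and at 55.9 and 95.3 FPKM in SKNMC. In SKNMC LDHA came directly after ENO1 with 1033 FPKM, while in A673 PKM, at 988 FPKM, stood between ENO1 and LDHA, at 869 FPKM. Together the 10 genes made up 2.20% of the summed FPKM of all listed genes in A673 and 1.51% in SKNMC. With no replicates it cannot be said which neighbours in these orders differ beyond their spread.

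Between the untreated lines, 8 of the 10 enzymes were higher in A673, where 46.9% of the 10574 genes active in both lines were higher. Of these 8, 6 were higher by at least 1.5-fold, against 16.7% of all genes. The gap was widest for PGAM1, at 3.14-fold, and for PKM, the pyruvate kinase of most tissues and tumors, at 2.40-fold. GAPDH, GPI, PGK1 and ALDOA lay close together at 1.68- to 1.73-fold. ALDOA is aldolase A, which splits the 6-carbon sugar, and PGK1 carries out the first ATP-forming step. LDHA and LDHB, the subunits of lactate dehydrogenase, were the exceptions, with log2 differences of -0.25 and -0.08 between A673 and SKNMC. The median log2 difference of the 10 genes was 0.75.

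**Figure D1:**
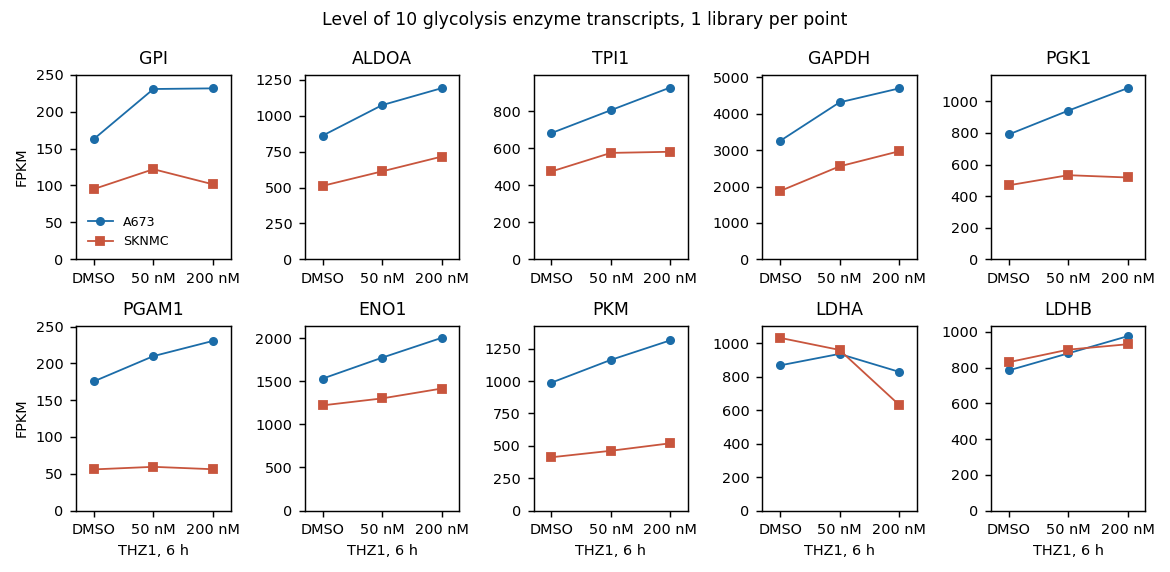
FPKM of each of the 10 enzymes (1 panel per gene, vertical axes linear and starting at 0) in the DMSO, 50 nM and 200 nM THZ1 libraries of A673 (blue) and SKNMC (red), 1 library per point. As deposited, 9 of 10 enzymes were higher at 200 nM than with DMSO in each line and LDHA was lower in both; divided by the median of ribosomal protein genes, only GAPDH stayed higher in SKNMC, and LDHA was higher in both lines when divided by the median of active genes and in A673 when divided by their 75th percentile.

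Of the 10 enzymes, GPI, ALDOA and TPI1 act between glucose 6-phosphate and the triose phosphates, and all 3 were higher with THZ1 in the deposited values. Phosphofructokinase, which acts between GPI and ALDOA, is not among the 10, and its genes are given further on. Under a scaling by ribosomal protein genes, also described further on, GPI, ALDOA and TPI1 were lower in SKNMC. GPI read 163 FPKM with DMSO, 231 FPKM at 50 nM and 231 FPKM at 200 nM in A673. In SKNMC GPI read 95.3, 122 and 102 FPKM. GPI thus had the largest ratio of the 10 in A673 at 50 nM, with a log2 fold change of 0.50, and one of the smallest in SKNMC at 200 nM, at 0.09. ALDOA read 863, 1075 and 1193 FPKM in A673 across DMSO, 50 nM and 200 nM. In SKNMC it read 512, 613 and 716 FPKM. It was higher at the larger dose in both lines, with log2 fold changes at 200 nM of 0.47 and 0.48. TPI1, triosephosphate isomerase, which interconverts the products of aldolase, read 683, 807 and 929 FPKM in A673. In SKNMC it read 475, 576 and 582 FPKM, close to level between the THZ1 doses, with a log2 difference of 0.015 between them.

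The steps from GAPDH to pyruvate kinase hold both the highest of the 10 genes, GAPDH, and PGAM1, one of the lowest. GAPDH read 3256, 4315 and 4697 FPKM in A673 across DMSO, 50 nM and 200 nM. In SKNMC it read 1879, 2556 and 2970 FPKM. Its ratio to DMSO was 1.33- and 1.44-fold in A673 and 1.36- and 1.58-fold in SKNMC, and it became the highest of all listed genes in both THZ1 libraries of A673. PGK1 read 791, 941 and 1083 FPKM in A673. In SKNMC PGK1 read 469, 533 and 518 FPKM. PGK1 was the member closest to the medians of the 10, at a distance of 0.053 over the 4 log2 fold changes. PGAM1 read 176, 210 and 230 FPKM in A673. In SKNMC PGAM1 read 55.9, 59.4 and 56.1 FPKM, so its level at 200 nM was 0.383% above that with DMSO. PGAM1 converts 3-phosphoglycerate to 2-phosphoglycerate, and ENO1 acts on its product. ENO1 read 1532, 1774 and 2004 FPKM in A673 and 1221, 1301 and 1416 FPKM in SKNMC. PKM read 988, 1164 and 1315 FPKM in A673 and 412, 462 and 520 FPKM in SKNMC. ENO1 and PKM were ordered by dose in both lines, although without replicates the steps cannot be set against an error.

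Lactate dehydrogenase is a tetramer of the subunits encoded by LDHA and LDHB, and LDHA is the one known for favoring lactate formation. LDHA was the exception among the 10. In A673 it read 869 FPKM with DMSO, 937 FPKM at 50 nM and 831 FPKM at 200 nM. In SKNMC it read 1033, 961 and 634 FPKM. LDHA thus lay between 1.63-fold lower and 1.08-fold higher than with DMSO, and its log2 fold change, at 0.11 and -0.06 in A673 and -0.10 and -0.70 in SKNMC, was the lowest of the 10 in all 4 comparisons. The scalings described further on move all enzymes of a library alike and cannot change that order, but they do change the sign of the LDHA values. LDHB read 785, 880 and 976 FPKM in A673. In SKNMC LDHB read 831, 901 and 931 FPKM. LDHA was above LDHB with DMSO and at 50 nM in both lines, by less at 50 nM, and below it at 200 nM. Of the summed LDHA and LDHB levels, LDHA made up 52.5% in the DMSO library of A673, 51.6% in the low-dose library and 46.0% in the high-dose library. In SKNMC the share was 55.4%, 51.6% and 40.5%. A ratio of genes within a library is free of its scaling. These shares differed between the libraries of each line, but with 1 library per condition they have no replicate error beside them. Against the median of the other 9 enzymes, the log2 difference of LDHA was -0.14 and -0.51 in A673 for the low and the high dose, and -0.29 and -0.92 in SKNMC. Both doses share the DMSO library of their line, so they are not independent of each other.

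Windows before annotated starts of LDHA, LDHB and GAPDH are shown because these genes mark the low end, its partner subunit and the high end of the set. Positions were not converted between this build and hg19, the build of the table. A window can thus lie inside a gene, before an alternative start, and none is taken as the main promoter. Judged by the positions of TPI1 on both builds, the GAPDH window probably lies inside the gene. Each sequence is the 250 bases before the RefSeq start on GRCh38.p14, written 5′ to 3′ on the strand of the gene, with capitals for ACGTG, the core of the hypoxia response element, and for its reverse complement CACGT. LDHA has 2 windows, and the upstream one is printed, at chr11:18394313-18394562 on the plus strand. LDHB is at chr12:21657843-21658092 on the minus strand and GAPDH at chr12:6535014-6535263 on the plus strand.
LDHA: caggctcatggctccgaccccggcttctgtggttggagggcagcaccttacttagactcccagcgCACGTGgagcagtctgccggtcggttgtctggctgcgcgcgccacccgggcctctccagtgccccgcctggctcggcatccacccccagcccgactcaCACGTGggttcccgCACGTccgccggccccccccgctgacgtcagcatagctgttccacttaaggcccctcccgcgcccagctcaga
LDHB: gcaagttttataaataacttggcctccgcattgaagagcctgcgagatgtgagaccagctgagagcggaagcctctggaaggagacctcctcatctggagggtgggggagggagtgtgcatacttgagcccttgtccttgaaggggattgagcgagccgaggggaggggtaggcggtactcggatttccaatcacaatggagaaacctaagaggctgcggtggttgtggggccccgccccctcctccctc
GAPDH: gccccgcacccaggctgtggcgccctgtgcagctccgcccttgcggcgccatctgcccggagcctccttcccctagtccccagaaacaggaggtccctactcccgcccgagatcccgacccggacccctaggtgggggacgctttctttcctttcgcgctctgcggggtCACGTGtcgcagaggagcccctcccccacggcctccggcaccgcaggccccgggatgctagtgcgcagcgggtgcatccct
Searched on both strands, the LDHA window held 5 matches to ACGTG, and 4 of them came from 2 copies of the palindrome CACGTG, the E-box, which holds ACGTG once on each strand. The GAPDH window held 2, both from 1 copy of CACGTG, and the LDHB window held none. The downstream LDHA window, at chr11:18396101-18396350, held none either. Of the 10 enzymes, 6 had ACGTG in at least 1 of their 14 windows, against 18.5% of all 35116 windows of this length, although members with several windows have more chances of a match. CACGTG was in windows of 3 enzymes, ALDOA, GAPDH and LDHA, against 6.34% of all windows. GGGCGG, the GC box, was in windows of 9 enzymes and 42.6% of all windows, CCAAT in windows of 4 enzymes and 32.0% of all, and TATAAA in the LDHB window alone and 10.7% of all. Counted by window, as these shares are, ACGTG was in 8 of the 14 enzyme windows and CACGTG in 3. GGGCGG was in 10 of the 14, CCAAT in 4 and TATAAA in 1. LDHA and GAPDH, at the low and the high end of the set in 3 of the 4 comparisons, both hold ACGTG in 1 window. A match describes letters in a window and is not a binding site.

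Counted in the deposited values, all 10 enzymes were higher than with DMSO in A673 at 50 nM, where 29.9% of active genes were higher; divided by the median of ribosomal protein genes, 7 of 10 were. At 200 nM in A673, 9 of 10 were higher against 29.6% of active genes, and 8 under the ribosomal scaling. In SKNMC 9 of 10 were higher at 50 nM against 27%, and 9 of 10 at 200 nM against 19.2%, but under the ribosomal scaling GAPDH alone remained higher at either dose. The enzymes are among the most abundant transcripts, and abundant transcripts as a whole were higher more often. Of the 449 genes at or above the level of GPI, the lowest enzyme in untreated A673, 76.2% were higher at the low dose and 77.1% at the high dose. Of the 1528 genes at or above the level of PGAM1, the lowest in SKNMC, 51.1% and 38.7% were higher. These floors differ, 163 FPKM in A673 and 55.9 FPKM in SKNMC, where PGAM1 alone sets it, so the shares of the lines are not compared with each other.

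The sizes were small. For the 10 enzymes in A673, the median of the log2 fold changes was 0.25 at the low dose and 0.43 at the high dose. In SKNMC it was 0.17 and 0.19, and under the ribosomal scaling -0.23 and -0.41. Genes at or above the lowest enzyme had medians of 0.18 and 0.28 in A673 and of 0.013 and -0.13 in SKNMC. At 50 nM in A673, 2 of 10 enzymes, GAPDH and GPI, were higher by at least 25%, against 7.43% of active genes and 14% of genes at or above the lowest enzyme. At 200 nM in A673 the count was 8 of 10, against 10.9% and 43.2%. In SKNMC 2 of 10, GAPDH and GPI again, passed 25% at 50 nM, against 8.49% and 13.3%. At 200 nM 3 of 10, GAPDH, ALDOA and PKM, passed it, against 7.5% and 16.2%. In SKNMC the floor of the second share is set by PGAM1 alone, and most of the enzymes lie far above it. None was higher by 1.5-fold in A673 at either dose, where 1.78% and 1.7% of active genes were, nor in SKNMC at 50 nM, where 2.43% were. At 200 nM in SKNMC GAPDH alone passed it, against 2.81% of active genes and 5.10% of genes at or above the lowest enzyme. LDHA alone was lower by at least 1.5-fold in that library, as were 48% of active genes and 23.2% of genes at or above the lowest enzyme.

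**Figure D2:**
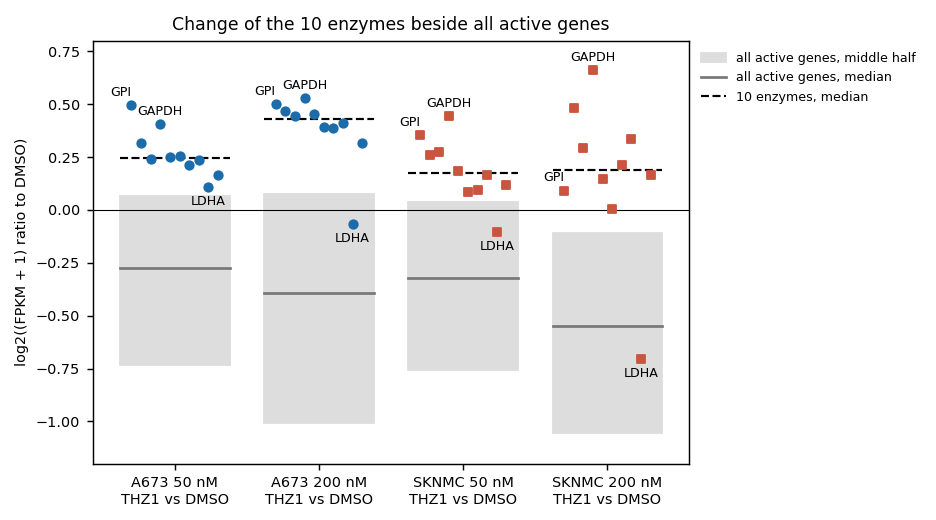
Log2((FPKM + 1) ratio to DMSO) of the 10 enzymes (points, left to right in pathway order) in 4 comparisons, with dashed lines at their medians and grey boxes and lines for the middle quartiles and the median of all active genes. In the deposited values the enzyme medians of 0.25, 0.43, 0.17 and 0.19 lie above the active-gene medians, and LDHA is the lowest enzyme throughout; with the ribosomal scaling the enzyme medians in SKNMC turn negative.

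Between the THZ1 doses, 9 of 10 enzymes were higher at 200 nM than at 50 nM in A673, all but LDHA, against 48.3% of active genes. In SKNMC 6 of 10 were, against 37.9%, and LDHA, GPI, PGAM1 and PGK1 were lower at 200 nM. The median log2 differences between doses were 0.15 in A673 and 0.03 in SKNMC, and the latter was -0.16 under the ribosomal scaling. The summed share of the 10 enzymes went from 2.20% to 2.73% and 2.93% of the listed FPKM in A673 across the doses. In SKNMC the sum went from 1.51% to 1.76% and 1.87%. GAPDH made up 32.2%, 35.0% and 34.8% of that sum in A673 and 26.9%, 31.6% and 35.2% in SKNMC. LDHA made up 8.60%, 7.60% and 6.16% of it in A673 and 14.8%, 11.9% and 7.51% in SKNMC.

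How each library is scaled decides the sign of the enzyme median in SKNMC. Scaling to a common sum of the listed genes, with or without EEF1A1, left 10, 9, 9 and 9 enzymes higher in A673 at the low and the high dose and in SKNMC at the same doses. With the 75th percentile of the active genes as divisor, the active-gene medians shifted by 0.22, 0.32, 0.25 and 0.48 in that order, and 10, 10, 10 and 9 enzymes were higher. Dividing by the median of active genes shifted the active-gene medians by 0.43, 0.67, 0.42 and 0.72, and all 10 enzymes were higher in each comparison. Dividing by the median of the 83 cytosolic ribosomal protein genes shifted the active-gene medians by -0.19, -0.29, -0.30 and -0.41, and left 7, 8, 1 and 1 enzymes higher. The ribosomal protein genes took 13.7%, 16.1% and 17.7% of the listed FPKM in A673 and 19.0%, 24.7% and 29.7% in SKNMC, so relative to them most enzymes in SKNMC were lower and relative to the typical active gene they were higher. Without an added standard, the level per cell cannot be given.

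**Figure D3:**
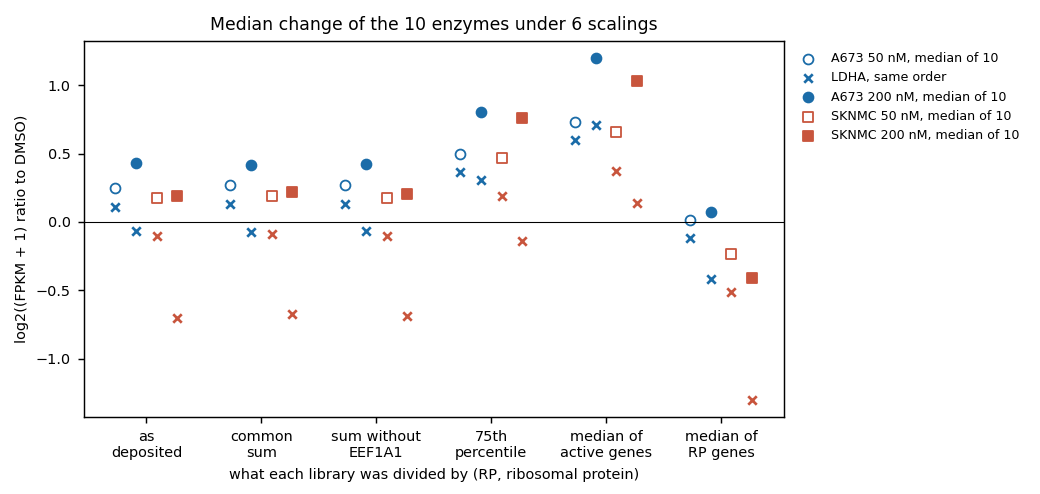
Median log2((FPKM + 1) ratio to DMSO) of the 10 enzymes (circles for A673, squares for SKNMC, open for 50 nM and filled for 200 nM) and of LDHA (crosses in the same order) under 6 ways to scale a library. The enzyme median is above 0 in all 4 comparisons under 5 scalings and below 0 in SKNMC, at -0.23 and -0.41, with the ribosomal scaling, while LDHA lies below the enzyme median, an order that no scaling of this kind can change.

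Genes for the entry and the control of the pathway are given beside all active genes, of which 70.4% in A673 and 80.8% in SKNMC were lower at 200 nM in the deposited values. PFKFB3 makes fructose 2,6-bisphosphate, the strongest activator of phosphofructokinase. It read 44.1, 17.5 and 10.5 FPKM in A673 and 18.8, 10.3 and 5.22 FPKM in SKNMC, and was thus lower at each dose, with log2 fold changes from -0.81 to -1.97, and stayed lower under all 6 scalings. TIGAR, which removes the same metabolite, read 12.4, 9.96 and 5.88 FPKM in A673 and 13.1, 14.8 and 6.46 FPKM in SKNMC. Of the 5 genes of fructose 2,6-bisphosphate metabolism, 2 were active in A673, and at 200 nM both were lower by at least 1.5-fold, against 41.1% of active genes. In SKNMC 4 were active, and at 200 nM all 4 were lower, 2 of them by at least 1.5-fold, against 80.8% and 48% of active genes, while 3 of 4 were lower when divided by the median of active genes. The list medians at 200 nM were -1.47 and -0.70, beside -0.40 and -0.55 over all active genes.

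Genes of glucose and lactate transport differed among themselves. SLC2A1, the glucose transporter GLUT1, read 14.1, 10.8 and 10.6 FPKM in A673. In SKNMC SLC2A1 read 19.3, 14.7 and 4.70 FPKM, a log2 fold change of -1.83 at 200 nM. The 200 nM value in SKNMC stayed below 0 under all 6 scalings, and those at 50 nM and 200 nM in A673 turned to 0.10 and 0.35 when divided by the median of active genes. The 50 nM value in SKNMC, -0.37 as deposited, also turned positive with that divisor. BSG, the chaperone of the lactate exporters, behaved like the enzymes, with 479, 615 and 703 FPKM in A673 and 262, 333 and 384 FPKM in SKNMC, although under the ribosomal scaling it too was lower in SKNMC. Of the transport genes that were active, 5 of 6 were lower in A673 at 200 nM and 6 of 7 in SKNMC, against 70.4% and 80.8% of active genes. Lower by at least 1.5-fold were 0 of 6 in A673, against 41.1% of active genes, and 5 of 7 in SKNMC, against 48%. The counts of lower genes were 0 of 6 and 4 of 7 when divided by the median of active genes. Chosen after their values were seen, the lactate exporters SLC16A1 and SLC16A3 are given too. SLC16A1 was higher at 50 nM under all 6 scalings and, in the deposited values, lower at 200 nM, with log2 fold changes of 0.69 and -0.42 in A673 and 0.82 and -0.09 in SKNMC; divided by the median of active genes, the values at 200 nM were 0.34 and 0.74. SLC16A3, near 1 FPKM in A673, read 44.1, 23.3 and 17.2 FPKM in SKNMC.

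Of the hexokinases and phosphofructokinases, which carry out the early ATP-consuming steps, 6 of 8 were active. At 200 nM 4 of 6 were higher in A673, against 29.6% of active genes, with a median log2 fold change of 0.10. In SKNMC 2 of 6 were higher and 3 were lower by at least 1.5-fold, against 19.2% and 48% of active genes. The median there was -0.58, beside -0.55 over all active genes, and it was 0.23 when divided by the median of active genes. In A673 the median was -0.24 under the ribosomal scaling. PFKL, the liver-type phosphofructokinase, had the highest mean change of the list and log2 fold changes of 0.45 and 0.27 at 200 nM. ADPGK, which phosphorylates glucose with ADP, had the lowest mean and values of -0.51 and -0.69, or 0.23 and 0.12 when divided by the median of active genes. The members of this list that follow were chosen after their values were seen. HK1 read 37.1, 36.5 and 38.7 FPKM in A673 and 5.64, 4.31 and 2.12 FPKM in SKNMC. HK2 read 9.44, 9.07 and 6.49 FPKM in A673 and 12.9, 14.1 and 6.79 FPKM in SKNMC. PFKP, the highest phosphofructokinase with DMSO in both lines, read 115, 107 and 127 FPKM in A673 and 56.8, 27.8 and 40.5 FPKM in SKNMC. PFKM had log2 fold changes at 200 nM of 0.31 in A673 and 0.14 in SKNMC.

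Of 15 isozymes of the 10 enzymes, 4 were active in A673 and 3 in SKNMC. ENO2, the neuronal enolase, read 30.1, 29.6 and 44.8 FPKM in A673 and 8.06, 6.94 and 14.1 FPKM in SKNMC. ENO3, the muscle enolase, read 2.73, 3.39 and 4.18 FPKM in A673 and 2.11, 2.74 and 4.15 FPKM in SKNMC. Both were higher at 200 nM than with DMSO in each line, under all 6 scalings. ALDOC, aldolase C, read 1.34, 2.67 and 2.46 FPKM in A673 and 0.997, 1.53 and 1.26 FPKM in SKNMC. BPGM, which makes 2,3-bisphosphoglycerate, was lower at 200 nM, with log2 fold changes of -0.32 in A673 and -0.95 in SKNMC, and 0.37 in A673 when divided by the median of active genes.

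**Figure D4:**
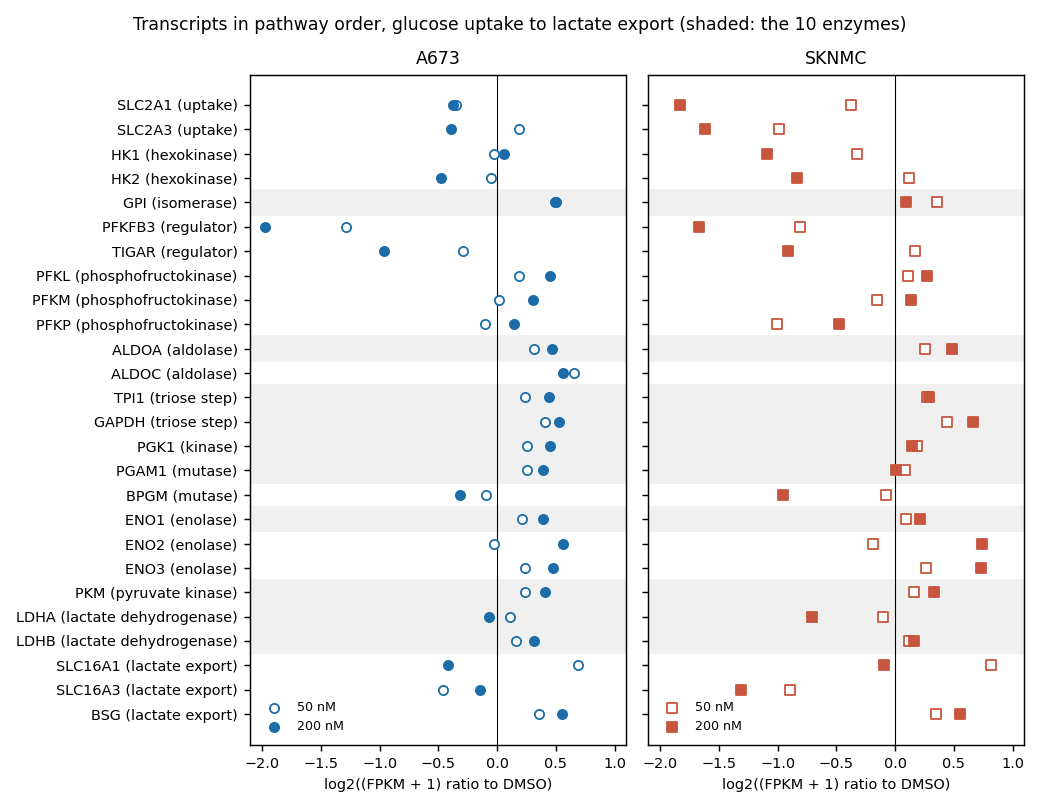
Log2((FPKM + 1) ratio to DMSO) for 26 transcripts from glucose uptake to lactate export in A673 (left) and SKNMC (right), open for 50 nM and filled for 200 nM, with the 10 enzymes shaded. In the deposited values the shaded rows other than LDHA lie to the right of 0 at 200 nM, PFKFB3 and SLC2A1 lie to the left in both lines, and with the ribosomal scaling the shaded rows of SKNMC other than GAPDH move to the left of 0.

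Neighbouring pathways had medians that changed sign with the scaling. Divided by the median of active genes, the medians of the 4 lists that follow lay above 0 in both lines at 200 nM, and under the ribosomal scaling they were below 0 apart from gluconeogenesis in A673, at 0.028. The 7 genes of the pentose phosphate pathway, all active, had median log2 fold changes at 200 nM of 0.23 in A673 and -0.09 in SKNMC, and none changed by 1.5-fold in either direction. RPE, an epimerase, had the lowest mean of the list. The 16 genes of the tricarboxylic acid cycle had medians of 0.17 and -0.24 at 200 nM, with 9 higher in A673 and 4 in SKNMC. Of all active genes, 29.6% in A673 and 19.2% in SKNMC were higher at this dose. OGDH, of the oxoglutarate dehydrogenase complex, had the lowest mean there, with -0.41 and -0.89. Of the genes of pyruvate dehydrogenase and the pyruvate carrier, 6 of 11 active genes were higher in A673 at 200 nM and 0 of 12 in SKNMC. Here PDP2, a phosphatase that activates the complex, had the lowest mean, with -1.83 in A673 and -1.14 in SKNMC at 200 nM. Among the listed genes with a part in gluconeogenesis, 3 of 3 active genes were higher in A673 and 0 of 4 in SKNMC at 200 nM, beside the same shares of 29.6% and 19.2%.

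Known targets of the hypoxia response outside glycolysis had medians below 0 in the deposited values and under the ribosomal scaling, and medians of 0.064 and 0.15 at 200 nM when divided by the median of active genes. At 200 nM 7 of 9 active genes were lower in A673, with a median log2 fold change of -0.52, and 10 of 10 in SKNMC, with a median of -0.57, against 70.4% and 80.8% of active genes. ANGPTL4, a secreted lipase inhibitor, had the lowest mean and read 8.19, 3.34 and 1.79 FPKM in A673 and 5.63, 2.12 and 1.57 FPKM in SKNMC, lower under all 6 scalings. NDRG1 had the highest mean and read 3.55, 4.22 and 3.29 FPKM in A673 and 10.5, 14.3 and 9.84 FPKM in SKNMC. These medians stand beside -0.40 and -0.55 over all active genes, so the list sat near the background.

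GAPDH is also a common reference gene, and the study's qRT-PCR was normalised to it. The qRT-PCR results shown there were of cells with gene knockdowns and not of THZ1-treated cells. Its level relative to other reference genes depended on the partner. GAPDH over ACTB, the cytoplasmic actin, was 1.37, 1.60 and 1.64 in A673 and 1.11, 1.39 and 1.63 in SKNMC. GAPDH over TBP, the TATA-binding protein, was 289, 644 and 1888 in A673 and 125, 304 and 850 in SKNMC. TBP itself read 11.3, 6.70 and 2.49 FPKM in A673 and 15.0, 8.39 and 3.49 FPKM in SKNMC, lower at each dose under all 6 scalings. Of 12 reference genes other than GAPDH and PGK1, 10 were higher at 200 nM in A673 and 9 in SKNMC, against 29.6% and 19.2% of active genes. Among genes at or above the lowest enzyme with DMSO the shares were 77.1% and 38.7%, although some reference genes, such as TBP, lie below that level. The medians of the 12 reference genes were 0.25 and 0.28, and the counts of higher genes were 3 and 1 of 12 under the ribosomal scaling. B2M, of the class I antigen complex, was near GAPDH, with values of 0.59 and 0.57 at 200 nM.

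**Figure D5:**
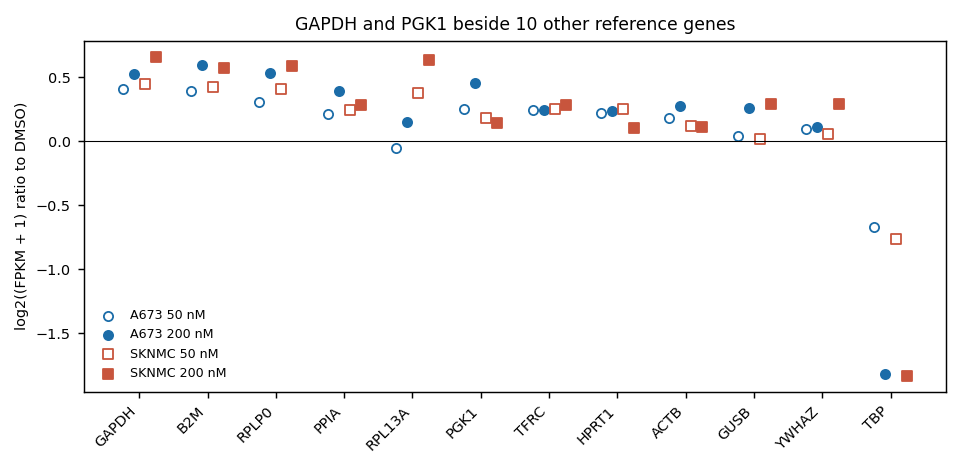
Log2((FPKM + 1) ratio to DMSO) of GAPDH, PGK1 and 10 other reference genes in deposited values, open for 50 nM and filled for 200 nM, circles for A673 and squares for SKNMC. GAPDH lies between 0.41 and 0.66 and TBP between -0.67 and -1.83; with the ribosomal scaling GAPDH lies between 0.03 and 0.18 and PGK1 falls below 0 in SKNMC.

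The 5 genes outside the set whose 4 log2 fold changes lay nearest to the enzyme medians, of 5976 genes above 10 FPKM in both DMSO libraries, were HSBP1, COL21A1, AHCY, NDUFA2 and ARF5. HSBP1, which binds a heat shock factor, was nearest, at a distance of 0.013, with 75, 89.0 and 102 FPKM in A673 and 35.0, 39.4 and 39.8 FPKM in SKNMC. AHCY, which hydrolyses S-adenosylhomocysteine, read 199, 229 and 265 FPKM in A673 and 177, 204 and 205 FPKM in SKNMC. This likeness rests on 4 values that share 2 DMSO libraries. Among the members themselves the distance to the medians ran from 0.053 for PGK1 to 0.58 for GAPDH and 1.07 for LDHA.

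On hg19, as the table lists them, the 10 genes lie on 8 chromosomes, with GAPDH, LDHB and TPI1 on chromosome 12. GAPDH (ENSG00000111640) spans chr12:6643093-6647537 and LDHA (ENSG00000134333) spans chr11:18415935-18429972, both on the plus strand. LDHB (ENSG00000111716) spans chr12:21788276-21910791 on the minus strand. The spans run from 3.83 kb for TPI1 to 122.5 kb for LDHB, with a median of 17.8 kb against 31.7 kb for genes active in both lines. TPI1 shares 14 bases with SPSB2 on the opposite strand, which read at most 3.40 FPKM. GPI shares 5842 bases with RP11-618P17.4 on its own strand, which read at most 0.388 FPKM. RefSeq names 104 pseudogenes of these enzymes, 65 of them of GAPDH and 13 of PGAM1, and none of them is listed in the table. How reads shared with such copies were assigned is not given in the sources used here, so the levels of GAPDH and PGAM1 in particular carry that uncertainty.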

How the data were processed

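Total RNA of 6 libraries was sequenced by the authors as 100-bp paired-end TruSeq libraries. Per the methods, reads were aligned to hg19 with STAR using Ensembl 75 and FPKM was estimated with StringTie; the submitters' processing notes name STAR and Cufflinks, without versions. The deposited FPKM values cover 27420 genes (20311 protein-coding, 7109 lincRNA). The table's title speaks of average expression, and how many cultures a column stands for is not stated; each column was treated as 1 library. The deposited log2 columns hold the authors' own fold changes and were not used.

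Groups came from the labels. Log2 fold changes used a pseudocount of 1 FPKM. Active genes had more than 1 FPKM with DMSO. With 1 library per condition no test was run (a fit of dose with line as a block would take the lines as replicates), and calls are thresholds of 25% and 1.5-fold. Read depth is not known from FPKM: the most frequent ratio of low values was held by at most 0.416% of low genes, so no step of 1 read was found and no counting interval can be given. Listed starts count from 0 and are given from 1. Windows before annotated starts came from RefSeq on GRCh38.p14, a build other than that of the table, for 10 of 10 members.

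The members and lists were chosen with earlier results of these data known. Genes named are the members, their isozymes above 1 FPKM in any library, the genes with the highest and lowest mean change in each list, all reference genes, and the 5 nearest in pattern; others are said to be chosen later. Some genes of this rule are not reported here by name or in the plots, and remain in the list counts. Of 132 listed symbols 131 were matched, 1 of them by gene ID. Alternatives were a pseudocount of 0.1, 5 other scalings, other thresholds and other backgrounds. Python 3.11.15, numpy 2.4.6 and pandas 2.3.3 were used, and the steps were tested on simulated data.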

Additional observations from a re-analysis of the deposited data

Results flagged for a closer look

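Some transcripts moved in opposite directions in the lines at the same dose, which with 1 library per condition was not tested. LDHA at 50 nM had log2 fold changes of 0.11 in A673 and -0.10 in SKNMC. TIGAR at 50 nM had -0.29 and 0.17, and RPL13A had -0.054 and 0.38. PC, pyruvate carboxylase, had 0.15 and -0.0088 at 50 nM and 0.35 and -0.0058 at 200 nM; in SKNMC these are near 0 and, with a common sum, were 0.0055 and 0.024. At 200 nM PCK2, the mitochondrial phosphoenolpyruvate carboxykinase, had 0.25 and -0.89, and MPC2, a subunit of the pyruvate carrier, had 0.31 and -0.15. These are 4 of 43 named genes at 50 nM and 3 at 200 nM, while 15.2% of the 10574 genes active in both lines moved in opposite directions at 50 nM and 18.7% at 200 nM. Divided by the median of active genes, PCK2 alone of these kept opposite signs.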

How the results depend on the processing

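No paired analysis was possible because the labels give no replicate numbers to pair by and each condition has 1 library; a fit of dose with cell line as a block, which takes the lines as replicates, was not run. Values below are in the order A673 50 nM, A673 200 nM, SKNMC 50 nM and SKNMC 200 nM. The enzymes' median log2 fold change was 0.27, 0.42, 0.19 and 0.22 with a common sum; without EEF1A1 it moved to 0.27 in A673 at 50 nM and 0.21 in SKNMC at 200 nM. It was 0.50, 0.80, 0.47 and 0.76 with the 75th percentile, 0.73, 1.2, 0.65 and 1.03 with the median of active genes, and 0.015, 0.075, -0.23 and -0.41 with the ribosomal scaling, reversed in SKNMC. Enzymes at least 1.5-fold higher, 0, 0, 0 and 1, became 2, 9, 2 and 8 with the 75th percentile and 10, 10, 7 and 9 with the median of active genes. In SKNMC at 200 nM the count was 0 with the ribosomal scaling or a 2-fold threshold; with a threshold of 25% the counts were 2, 8, 2 and 3. Between doses, the median in A673 was 0.12 with either sum, 0.27 with the 75th percentile, 0.43 with the median of active genes and 0.028 with the ribosomal scaling. In SKNMC these were 0.048, 0.31, 0.39 and -0.16. The median difference between the lines was 0.77, 0.76, 0.58, 0.68 and 1.21 under the 5 scalings. LDHA reversed to -0.12 in A673 at 50 nM with the ribosomal scaling, to 0.31 in A673 at 200 nM and 0.19 in SKNMC at 50 nM with the 75th percentile, and to 0.71, 0.38 and 0.14 in A673 at 200 nM and SKNMC at 50 nM and 200 nM with the median of active genes. Each scaling divides a library by 1 number, so these moves are the same for all enzymes of a comparison; which number follows the RNA per cell was not tested. A pseudocount of 0.1 reversed none of these medians, counts or LDHA values. Depth is not known, and nothing here measures the variation between cultures.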
